A study of Mus musculus with 6 samples.

Results

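The immediate early response genes Fos, Fosb, Jun, Junb, Egr1, Ier2, Ier3, Dusp1, Btg2 and Zfp36 were followed in the liver of 6 mice, array by array. Of these 10 genes, 9 were measured, each by 1 probe set that the platform annotation assigns to that gene alone, out of 14860 genes measured in this way. Fosb had no such probe set here, and no expression value is reported for it. The mice had eaten a high-fat diet for 8 weeks. In the 3 DeltaHepKlf6 mice Klf6, which encodes a Kruppel-like zinc finger transcription factor, was knocked down in hepatocytes only, and the 3 Control mice were littermates labelled wild type on the same diet. The labels record glucose intolerance and marked liver steatosis for the Control mice, and an improved tolerance with less steatosis for DeltaHepKlf6. The labels used here do not name the driver of the knockdown, nor the age, sex or strain of the mice. Total RNA of each whole liver sample was hybridised to 1 Affymetrix exon array, and all values below are the deposited log2 expression values of transcript probe sets.

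Immediate early genes are switched on within minutes of a growth factor, cytokine or physical stress, from transcription factors that are already present in the cell, and their short-lived RNAs fall again soon after. Signals through the MAP kinases reach serum response factor, which binds CArG boxes, and CREB, which binds cyclic AMP response elements (CRE), in their promoters. In liver the group is known for its response to partial hepatectomy, to fasting and feeding signals and to the handling and ischemia of the tissue at collection. The members fall into transcription factors that start a second wave of expression (Fos, Jun, Junb, Egr1), response genes with broader roles in cell growth and survival (Ier2, Ier3), and inhibitors that end the response (Dusp1, Zfp36, Btg2).

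Promoter sequences were available for 8 of the 10 genes, from 250 bases before to 50 bases after the annotated start (RefSeq, GRCm38.p6). None was available for Ier2 or for Egr1, the member with the widest span between the livers, 1.91, so neither was searched. The 5 below are those of members with wide differences between the livers (Fos, Zfp36, Jun and Dusp1) and of Btg2, whose order of arrays departed from theirs. They are printed 5′ to 3′ on the strand of the gene, with CArG boxes and CRE cores in capitals. They lie at chr12:85473640-85473939 (plus strand, Fos), chr7:28379179-28379478 (minus strand, Zfp36), chr4:95052173-95052472 (minus strand, Jun), chr17:26508423-26508722 (minus strand, Dusp1) and chr1:134079106-134079405 (minus strand, Btg2).
Fos: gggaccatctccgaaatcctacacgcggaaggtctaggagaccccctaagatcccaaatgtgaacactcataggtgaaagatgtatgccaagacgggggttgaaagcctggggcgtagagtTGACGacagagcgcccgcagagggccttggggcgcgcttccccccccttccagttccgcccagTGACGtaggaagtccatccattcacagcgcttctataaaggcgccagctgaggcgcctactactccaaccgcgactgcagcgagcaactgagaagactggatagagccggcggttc
Zfp36: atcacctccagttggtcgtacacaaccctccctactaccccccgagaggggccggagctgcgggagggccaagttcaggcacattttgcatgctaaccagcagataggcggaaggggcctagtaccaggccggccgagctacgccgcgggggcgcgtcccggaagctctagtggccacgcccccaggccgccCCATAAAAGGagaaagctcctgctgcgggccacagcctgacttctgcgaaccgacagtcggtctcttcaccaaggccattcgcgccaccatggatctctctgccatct
Jun: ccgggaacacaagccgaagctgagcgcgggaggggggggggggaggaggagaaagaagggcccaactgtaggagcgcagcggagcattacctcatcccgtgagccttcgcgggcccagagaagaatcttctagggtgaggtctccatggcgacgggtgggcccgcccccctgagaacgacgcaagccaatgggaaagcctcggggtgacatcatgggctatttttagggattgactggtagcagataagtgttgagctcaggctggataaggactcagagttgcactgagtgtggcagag
Dusp1: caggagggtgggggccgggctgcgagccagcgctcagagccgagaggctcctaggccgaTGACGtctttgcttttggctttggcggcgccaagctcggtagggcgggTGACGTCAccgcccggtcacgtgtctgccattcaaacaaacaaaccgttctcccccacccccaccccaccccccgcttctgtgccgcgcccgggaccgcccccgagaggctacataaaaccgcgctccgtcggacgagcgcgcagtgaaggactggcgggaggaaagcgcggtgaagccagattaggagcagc
Btg2: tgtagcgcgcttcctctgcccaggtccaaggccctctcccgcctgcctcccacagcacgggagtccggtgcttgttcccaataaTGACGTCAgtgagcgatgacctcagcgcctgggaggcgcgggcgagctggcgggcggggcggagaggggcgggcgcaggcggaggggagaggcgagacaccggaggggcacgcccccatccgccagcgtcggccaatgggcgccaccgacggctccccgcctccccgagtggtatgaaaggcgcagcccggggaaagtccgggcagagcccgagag
Zfp36 held the only CArG box among the 8 windows, starting 58 bases before its start, against 1.63% of all 32851 promoter windows. The full CRE TGACGTCA stood in the windows of Dusp1, 143 bases before the start, and of Btg2, 166 bases before it, and in 1.79% of all windows. The shorter CRE core TGACG, which also matches inside the full CRE, was found on either strand in 5 of the 8 windows (Fos, Fosb, Junb, Dusp1 and Btg2) and in 20.8% of all windows. The AP-1 site TGAGTCA was in 0 of the 8 and in 5.2% of all, and the GC box GGGCGG in 7 of the 8 and in 35.7% of all, both searched on either strand. The serum response element known from Fos lies further upstream than these windows. A match is a description of letters in these windows and not a site shown to be bound.

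The 6 arrays were alike over all 23332 probe sets, with pairwise correlations across probe sets of 0.953 to 0.974, and differed in the width of their values. The interquartile range of an array was widest in Control 1 at 3.29 and narrowest in DeltaHepKlf6 3 at 2.76, with the other arrays between 2.96 and 3.19. Control 3 stood apart by exocrine pancreas transcripts. All 8 measured pancreas markers were highest there, with a mean level of 11.06 against 4.83 to 5.17 in the other arrays, so differences are also given without that array. Hepatocyte markers such as Alb and Ttr were bright in every array, with list means from 12.35 to 12.47. Klf6, the targeted gene and itself an immediate early gene, read 6.80, 6.09 and 5.88 in the Control livers 1, 2 and 3, against 5.93, 5.43 and 5.45 in the DeltaHepKlf6 livers 1, 2 and 3. The groups overlapped, and the difference of -0.65 ± 0.28 (SE) did not pass the test (limma, Benjamini-Hochberg adjusted p = 0.998). Control 1 was 0.71 above the next array for Klf6. The difference was -0.38 ± 0.22 (SE) without Control 1 and -0.84 without Control 3.

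No difference between DeltaHepKlf6 and Control was detected for any of the 9 immediate early genes. The test called 0 of 9 (limma, adjusted p under 0.05), where it called 0.0% of all 23332 probe sets, and 0 of 9 had an unadjusted p under 0.05, against 3.21% of all probe sets. Of the members, 8 had a lower mean in DeltaHepKlf6 and 1, Btg2, a higher one, and 62.8% of all genes had a lower mean there. The median log2 difference over the members was -0.33, against -0.05 over all genes. The values of the groups overlapped for all 9 members, and did not overlap for 6.72% of all probe sets. Without Control 1 the median was 0.03, with 4 members lower and 5 higher, where 53.7% of all genes were lower. Without Control 3 the median difference over the members was -0.57. By member it was -0.81 for Fos, -0.58 for Jun, -0.08 for Junb, -0.57 for Egr1 and -0.31 for Ier2. For Ier3 it was -0.28, for Dusp1 -0.74, for Zfp36 -0.61 and for Btg2 -0.06. In whole liver RNA, fewer cells of a type and less RNA per cell cannot be told apart.

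**Figure D1:**
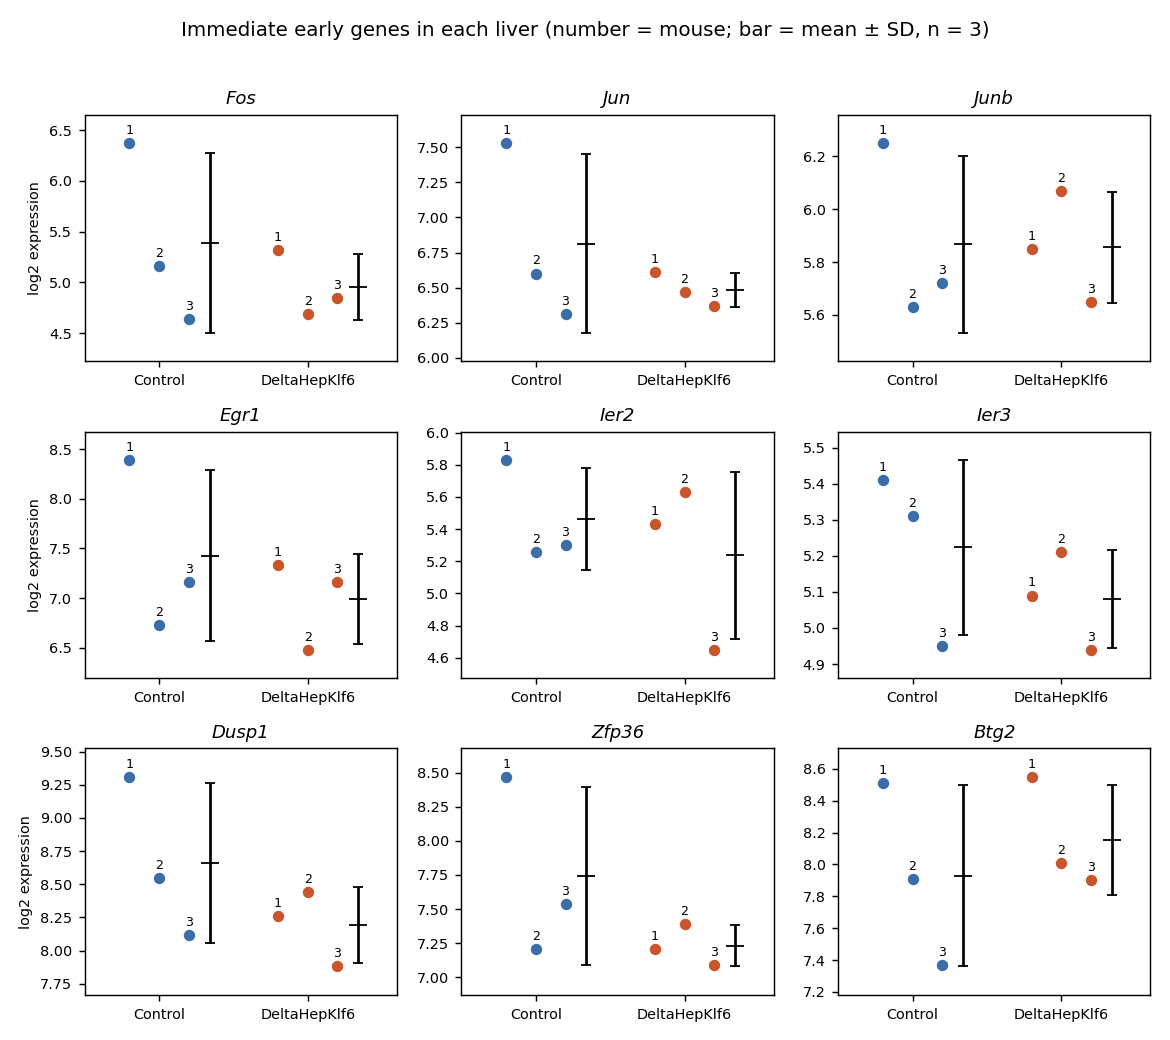
Log2 expression of the 9 measured immediate early genes (vertical axes, a scale for each gene) in the 3 Control livers (blue) and the 3 DeltaHepKlf6 livers (orange), with the number of the mouse above each point and the group mean ± SD beside it (n = 3). Control 1 was the highest point in 8 of 9 panels, and in the Btg2 panel it lay just below DeltaHepKlf6 1.

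Fos and Jun encode basic leucine zipper proteins that pair with each other as the transcription factor AP-1. Fos was 6.37, 5.16 and 4.64 in the Control livers 1, 2 and 3, against 5.32, 4.69 and 4.85 in the DeltaHepKlf6 livers 1, 2 and 3. Control 1 was 1.05 above the next array, while Control 2 lay among the DeltaHepKlf6 values and Control 3 was the lowest of all. Fos averaged 5.39 ± 0.89 (SD, n = 3) in the Control and 4.95 ± 0.33 (SD, n = 3) in the DeltaHepKlf6 livers, and its difference was -0.44 ± 0.45 (SE) with a 95% confidence interval of -1.53 to 0.66. This was within the spread between mice (limma, adjusted p = 0.998). The Fos probe set was dim, with a mean of 5.17 over the arrays, below 5.34, the 95th percentile of the probe sets of 718 olfactory receptor genes, which liver is not known to express, so differences of Fos may be compressed.

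Jun was 7.53, 6.60 and 6.31 in the Control livers 1, 2 and 3, against 6.61, 6.47 and 6.37 in the DeltaHepKlf6 livers 1, 2 and 3. Its 3 DeltaHepKlf6 values spanned only 0.24 and lay between Control 3 and just above Control 2, while Control 1 was 0.92 above every other array. The difference was -0.33 ± 0.32 (SE), from -1.11 to 0.45 (95% confidence interval, adjusted p = 0.998 by limma). Without Control 1 it was 0.03 ± 0.18 (SE). Junb, a partner of Fos with weaker activity than Jun at many promoters, was 6.25, 5.63 and 5.72 in the Control livers 1, 2 and 3, against 5.85, 6.07 and 5.65 in the DeltaHepKlf6 livers 1, 2 and 3. Control 1 was again highest, but by 0.18 over DeltaHepKlf6 2, and the group means of 5.87 ± 0.34 and 5.86 ± 0.21 (SD, n = 3) were almost equal. The difference of Junb was -0.01 ± 0.22 (SE), with an interval of -0.53 to 0.51. Its sign turned under several other settings.

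Egr1 encodes a zinc finger transcription factor induced alongside Fos. It was 8.39, 6.73 and 7.16 in the Control livers 1, 2 and 3, against 7.33, 6.48 and 7.16 in the DeltaHepKlf6 livers 1, 2 and 3. Control 1 exceeded the next array by 1.06, and among the other 5 arrays the highest and the lowest value were both from DeltaHepKlf6 mice. The difference of -0.44 ± 0.46 (SE) had an interval of -1.56 to 0.69 (limma, adjusted p = 0.998), and without Control 1 it was 0.045 ± 0.31 (SE). Ier2, a nuclear protein of the early response, was 5.83, 5.26 and 5.30 in the Control livers 1, 2 and 3, against 5.43, 5.63 and 4.65 in the DeltaHepKlf6 livers 1, 2 and 3. Here the spread of the DeltaHepKlf6 livers was the wider, with DeltaHepKlf6 3 the lowest of all arrays. Ier3, which affects cell survival, was 5.41, 5.31 and 4.95 in the Control livers 1, 2 and 3, against 5.09, 5.21 and 4.94 in the DeltaHepKlf6 livers 1, 2 and 3. All its values lay within 0.47, the narrowest span of the 9 members, and its probe set was dim too, at 5.15 on average. The differences were -0.23 ± 0.30 (SE) for Ier2 and -0.14 ± 0.17 (SE) for Ier3.

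Among the inhibitors, Dusp1 encodes a phosphatase that inactivates MAP kinases. It was 9.31, 8.55 and 8.12 in the Control livers 1, 2 and 3, against 8.26, 8.44 and 7.88 in the DeltaHepKlf6 livers 1, 2 and 3. Control 1 was highest by 0.76, and Control 2 also lay above all DeltaHepKlf6 livers, so that Control 3 alone made the groups overlap. The difference was -0.47 ± 0.33 (SE), with an interval of -1.26 to 0.33 (limma, adjusted p = 0.998). Without Control 1 it was -0.14 ± 0.25 (SE), and without Control 3, the liver with pancreas transcripts, it was -0.74. Zfp36 encodes tristetraprolin, which binds AU-rich elements and promotes the decay of cytokine and early response RNAs. It was 8.47, 7.21 and 7.54 in the Control livers 1, 2 and 3, against 7.21, 7.39 and 7.09 in the DeltaHepKlf6 livers 1, 2 and 3. Control 1 was 0.93 above the next array, and Control 2 equalled DeltaHepKlf6 1. Its difference was the largest of the 9 members in size, with 7.74 ± 0.65 (SD, n = 3) for Control, 7.23 ± 0.15 (SD, n = 3) for DeltaHepKlf6 and a difference of -0.51 ± 0.33 (SE) with an interval of -1.31 to 0.29. Without Control 1 it was -0.15 ± 0.19 (SE).

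Btg2, a growth inhibitor that recruits the deadenylase complex to RNAs, departed from the others. It was 8.51, 7.91 and 7.37 in the Control livers 1, 2 and 3, against 8.55, 8.01 and 7.90 in the DeltaHepKlf6 livers 1, 2 and 3. Control 1 and DeltaHepKlf6 1 were nearly equal at the top, and Control 3 was the lowest. The difference was 0.22 ± 0.33 (SE), with an interval of -0.58 to 1.02, and 0.51 ± 0.29 (SE) without Control 1, with an interval of -0.20 to 1.23 (limma, adjusted p = 0.998 and 1.000). Without Control 3 it was -0.06.

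**Figure D2:**
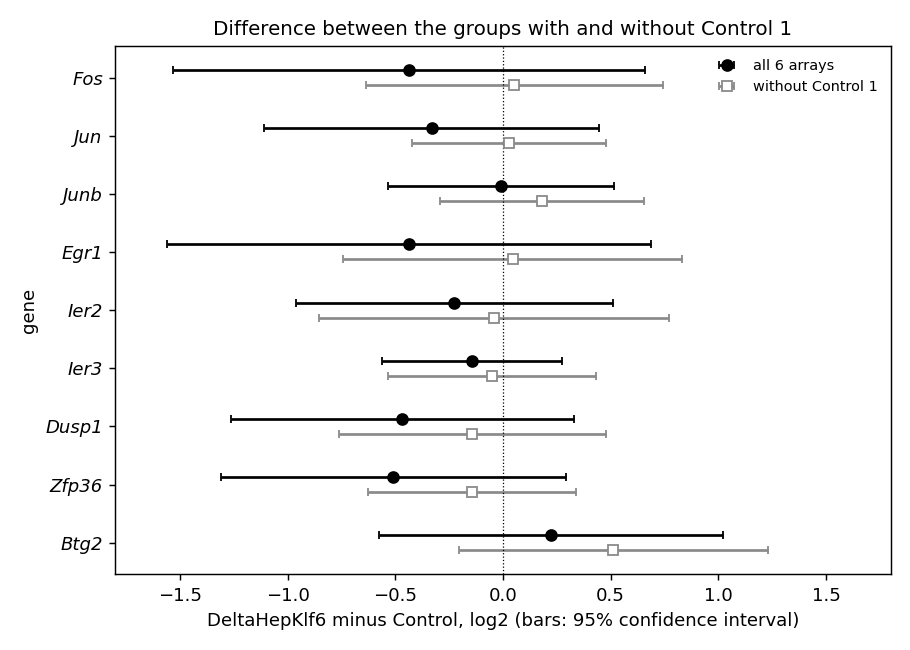
Log2 difference DeltaHepKlf6 minus Control of each member (horizontal axis) with its 95% confidence interval from limma, over all 6 arrays (filled circles) and without Control 1 (open squares). Every interval crosses 0 in both cases, and the differences of Fos, Jun and Egr1 move from -0.44, -0.33 and -0.44 to 0.05, 0.03 and 0.045 without Control 1.

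For 7 of the 9 members, more than 50% of the variation among the livers lay in the contrast of Control 1 with its fellow controls. Control 1 was the highest of the 6 arrays in 8 of 9 members, where it was highest in 33.2% of all genes and in 42.7% of the genes brighter than the median. It exceeded all other arrays by at least 0.5 in 5 of 9 members (Fos, Jun, Egr1, Dusp1 and Zfp36), against 2.24% of all genes and 2.8% of the brighter genes. No other array did so for any member. These counts describe 1 mouse and carry no test. Control 1 was already known to stand high for many of these genes, so it was singled out from these same values. A large excess or share of Control 1 in the members, here and below, was therefore to be expected.

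Set against the mean of Control 2 and 3, Control 1 was higher by 1.47 in Fos and 1.45 in Egr1, or 2.77-fold and 2.72-fold. The excess was 1.10 in Zfp36, 1.08 in Jun, 0.98 in Dusp1 and 0.87 in Btg2, and smaller in Junb with 0.58, Ier2 with 0.55 and Ier3 with 0.28. Of all 14860 genes, 0.222% had an excess as large as that of Fos or larger, and 29.2% one as large as that of Ier3. The median over the members was 0.98, against 0.12 over all genes. After quantile normalization, which gives every array the same distribution, the medians were 0.78 over the members and 0.07 over all genes, with 1.39 for Fos and 1.23 for Egr1. The share of genes with an excess as large as that of Jun was 0.787% as deposited and 1.37% after it.

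**Figure D3:**
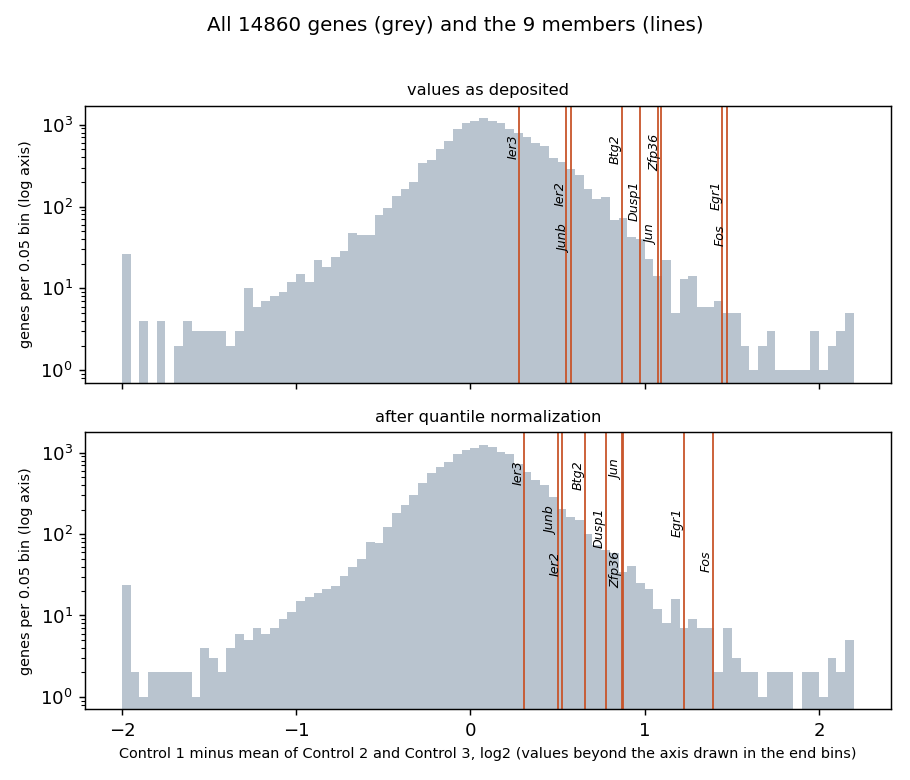
Distribution over all genes (grey, number of genes on a log axis) of the log2 excess of Control 1 over the mean of Control 2 and Control 3, with the 9 members as labelled lines, for the values as deposited (top) and after quantile normalization (bottom). Fos and Egr1 lie in the right tail in both panels, at 1.47 and 1.45 and at 1.39 and 1.23, while Ier3 lies near the middle.

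Divided into its sources, the variation of a member among the 6 livers lay between the groups by 13.8% in the median, close to the 11.6% of all genes. The contrast of Control 1 with Control 2 and 3 held 62.0% in the median member and 14.6% in the median gene. It was made for Control 1 alone, which was singled out from these same values. The variation among DeltaHepKlf6 livers held 18.6% and 47.4%. Ier2 and Ier3 were the members least tied to Control 1, with 24.7% and 28.3%. Zfp36 and Dusp1 had the largest shares between the groups, with 30.3% and 26.9%. Without Control 1 the median span from the lowest to the highest array fell from 1.22 to 0.67 over the members, against 0.55 and 0.49 over all genes.

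The 5 remaining arrays showed no common order. Without Control 1, DeltaHepKlf6 1 was the highest array for 4 members, Control 2 and DeltaHepKlf6 2 for 2 each and Control 3 for 1. The mean over the members was 7.34 in Control 1, 6.48 in Control 2 and 6.35 in Control 3. It was 6.63, 6.49 and 6.28 in DeltaHepKlf6 1, 2 and 3, so the Control 2 and 3 means lay inside the range of the DeltaHepKlf6 livers. DeltaHepKlf6 3 was lowest for 4 of 9 members, close to its 38.7% over all genes.

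Other immediate early genes were read from a list of 49, of which 47 were measured. The test called 0 of them (limma, adjusted p under 0.05), where it called 0.0% of all genes, and their median log2 difference was -0.17, or -0.05 without Control 1. Control 1 was the highest array in 24 of the 47, against 33.2% of all genes and 42.7% of the brighter genes. It exceeded all others by at least 0.5 in 10, against 2.24% of all genes and 2.8% of the brighter genes. No other array did so for any of the 47. Atf3, a stress-induced partner of Jun, was 7.32, 5.80 and 5.92 in the Control livers 1, 2 and 3, against 5.60, 5.23 and 5.58 in the DeltaHepKlf6 livers 1, 2 and 3. Its groups did not overlap, yet the difference of -0.88 ± 0.42 (SE) did not pass the test (limma, adjusted p = 0.998) and was -0.39 without Control 1. Plk3, a stress-responsive kinase, was 8.68 in Control 1 and from 7.40 to 7.59 in the other 5 arrays. Trib1, a pseudokinase that controls turnover of C/EBP proteins, was 8.83 in Control 1 and from 7.74 to 8.06 elsewhere, and Pim3, a survival kinase, was 8.17 against 7.09 to 7.67. Myc, a growth-promoting transcription factor, had another order, with 7.56 in Control 1, 6.30 and 6.35 in Control 2 and 3 and 6.93 to 7.04 in the DeltaHepKlf6 livers. It differed by 0.25 ± 0.35 (SE) with all arrays and by 0.66 without Control 1 (limma, adjusted p = 0.998 and 1.000). Dusp6, another MAP kinase phosphatase, and Zfp36l1, a relative of Zfp36, were also highest in Control 1, at 7.44 and 9.53.

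In some early response genes Control 1 stood apart less or was not the highest. Ccn1, a matrix-associated growth regulator, was 6.55, 6.64 and 6.11 in the Control livers 1, 2 and 3, against 5.42, 6.09 and 5.20 in the DeltaHepKlf6 livers 1, 2 and 3. The groups did not overlap, by 0.02, and Control 1 was not the highest. Its difference was -0.86 ± 0.28 (SE), and -0.81 without Control 1 (limma, unadjusted p = 0.0194, adjusted p = 0.998). Klf10, a Kruppel-like factor induced by TGF-beta, and Fosl2, a relative of Fos, were singled out after their values were seen. They differed by -0.58 ± 0.14 (SE) and -0.52 ± 0.20 (SE), or by -0.52 and -0.34 without Control 1, also without overlap, and both were highest in Control 1, by 0.09 and 0.46 over the next array. These were the 3 of 47 genes with an unadjusted p under 0.05 and a lower mean, where 1.03% of all genes met that rule, and none passed after adjustment over all probe sets. In 6 of the 47 the DeltaHepKlf6 values all lay below the Control values, against 3.9% of all genes. Gadd45g and Gadd45b, genes of the response to DNA damage and stress, were high in Control 3 and DeltaHepKlf6 2 as well as Control 1, and lowest in DeltaHepKlf6 3, with spans of 2.03 and 1.26. Gadd45b was highest in Control 1, by 0.34, and Gadd45g in Control 3. Plk2, a kinase related to Plk3, was 6.12 in Control 1, below the 6.56 of Control 2.

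**Figure D4:**
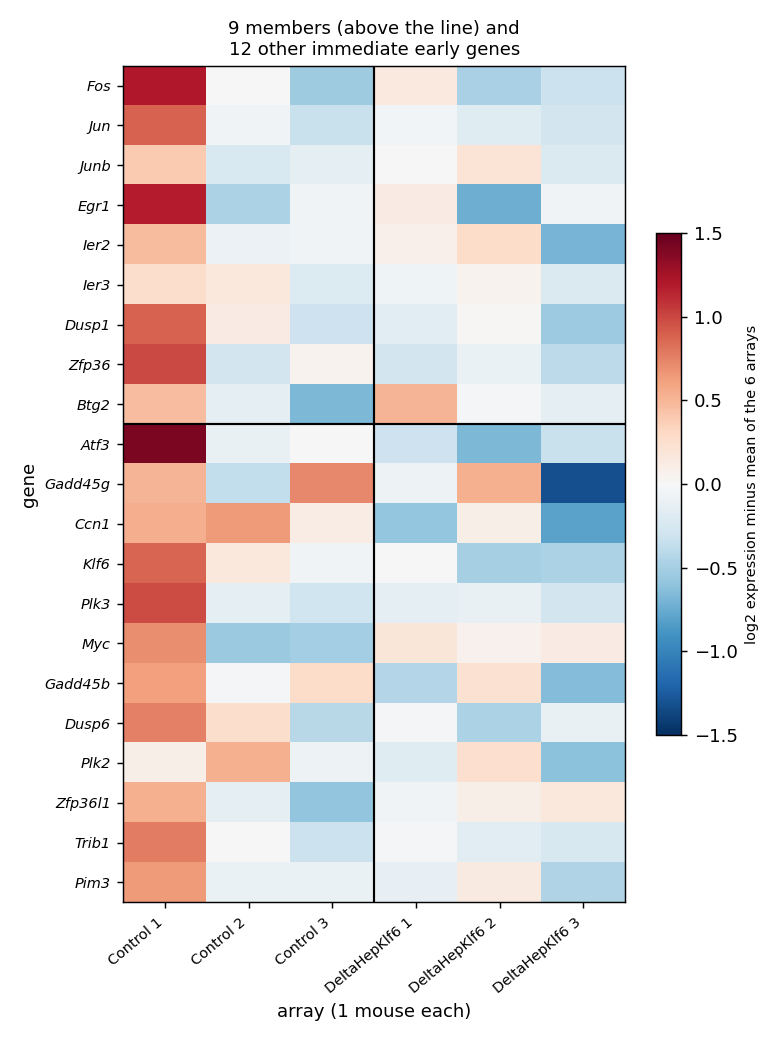
Log2 expression of the 9 members and of 12 other immediate early genes in each array (columns), shown as the distance from the mean of the 6 arrays of that gene (red higher, blue lower). The Control 1 column is red for Fos, Jun, Egr1, Dusp1, Zfp36, Atf3, Plk3 and Trib1, whereas Ccn1 and Plk2 were highest in Control 2 and Gadd45g in Control 3.

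Genes outside the list with the most similar pattern were sought among the 7445 other genes brighter than the median, by the root mean square distance between centred profiles over the 6 arrays. The closest were Anxa2, a membrane-binding annexin, at a distance of 0.07, Trib1 at 0.07 and Dnase1l3, a secreted nuclease, at 0.09, followed by Tmem144, Zc2hc1a, Rbpms, Nacc1, Fitm2, Celf2 and Ctdnep1, up to 0.12. The median distance over these genes was 0.32, and the members themselves lay between 0.08 for Jun and 0.37 for Egr1. Anxa2 was 6.97, 6.15 and 6.04 in the Control livers 1, 2 and 3, against 6.15, 6.12 and 5.80 in the DeltaHepKlf6 livers 1, 2 and 3. Of these 10 genes, only Trib1 was on the list of other immediate early genes.

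Signal chain genes and related stress programmes were read in the same arrays. Of the 16 measured genes between growth factor receptor and serum response factor, 7 were highest in Control 1, where 33.2% of all genes and 42.7% of the brighter genes were, and their median excess over the other controls was 0.26. Map2k2, a MAP kinase kinase, was 7.83 there and 6.55 to 7.46 elsewhere. All 5 measured heat shock genes were highest in Control 1. Hspa1a, the inducible HSP70, was 7.54, 7.10 and 6.57 in the Control livers 1, 2 and 3. In the DeltaHepKlf6 livers 1, 2 and 3 it was 5.69, 7.16 and 6.81. Control 1 led the next array by 0.38 in Hspa1a and 0.32 in Bag3, but by only 0.05 in Hsph1 and 0.04 in Dnajb1. In Hsp90aa1 it led by 0.17, at a mean of 3.14 over the arrays, near the olfactory receptor median of 3.16. Hypoxia genes were highest in Control 1 in 2 of 10, glucocorticoid response genes in 4 of 10 and cyclic AMP and fasting genes in 2 of 8, counts to be read against the same shares. The lists are not separate: the glucocorticoid list holds Dusp1, a member, and Lcn2, also a neutrophil marker, and the cyclic AMP list holds Nr4a1, also an early gene, all of them among the genes highest in Control 1. Hmox1, heme oxygenase, was 9.32, 8.54 and 8.45 in the Control livers 1, 2 and 3. In the DeltaHepKlf6 livers 1, 2 and 3 it was 8.25, 8.22 and 7.35. All of these lay below the Control values, as in 3.9% of all genes. The Hmox1 difference was -0.83 ± 0.34 (SE), or -0.555 without Control 1 (limma, adjusted p = 0.998 with all arrays). Cdkn1a, a cell cycle inhibitor, was 10.06 in Control 1 and 7.83 to 9.23 elsewhere. Igfbp1, an insulin-repressed binding protein, was 11.22 against 9.73 to 10.31. Others of the genes with the widest spans had another order. Adm, the peptide hormone adrenomedullin, was 5.02, 5.31 and 3.31 in the Control livers 1, 2 and 3, against 3.39, 4.99 and 2.92 in the DeltaHepKlf6 livers 1, 2 and 3. Ddit4, an inhibitor of mTOR signalling, was highest in DeltaHepKlf6 1 at 5.94, with 5.48 in Control 1. Ppargc1a, a coactivator of fasting metabolism, was 8.35, 8.64 and 8.39 in the Control livers 1, 2 and 3. In the DeltaHepKlf6 livers 1, 2 and 3 it was 9.39, 8.72 and 9.50. Control 1 was thus lowest, but all Control values lay below all DeltaHepKlf6 values. Its difference was 0.74 ± 0.24 (SE), and 0.69 without Control 1. By limma, p was 0.0195 before adjustment and 0.998 after it. Of its variation, 67.1% lay between the groups and 1.47% in the contrast of Control 1 with Control 2 and 3. G6pc, glucose-6-phosphatase, outside the naming rule, was also lowest in Control 1, at 10.17 against 10.64 to 11.10. The test called 0 genes of any of these lists (limma, adjusted p under 0.05).

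Markers of other cells moved with the members in part. Neutrophil markers were highest in Control 1 in 8 of 11, against 33.2% of all genes. Their list means were 6.18, 5.58 and 5.42 in the Control livers 1, 2 and 3, against at most 5.62 in the DeltaHepKlf6 livers. Among the markers highest in Control 1, S100a8, Ngp, Csf3r and Itgam were dim, with means of 3.88, 4.105, 4.42 and 4.95 over the arrays. These lie below 5.34, the 95th percentile of the olfactory receptor probe sets. Retnlg, a neutrophil transcript, was 7.81 in Control 1 and 4.55 to 5.96 elsewhere, and S100a9, a neutrophil calcium-binding protein, 6.73 against 4.83 to 6.02, whereas the granule genes Elane, Camp and Mpo were not highest there. S100a9, Elane and Camp averaged 5.58, 5.56 and 5.45 over the arrays, little above the same percentile, and Mpo averaged 4.97, below it. Macrophage and Kupffer cell markers were highest in Control 1 in 8 of 12, with list means from 7.49 to 7.97 in Control and from 6.83 to 7.58 in DeltaHepKlf6. All 12 had a lower mean in DeltaHepKlf6, with all arrays and without Control 1, against 62.8% and 53.7% of all genes. Of the 7451 genes brighter than the median, 5156 and 4188 were lower. The list means of DeltaHepKlf6 1, 2 and 3 were 7.37, 7.58 and 6.83, so DeltaHepKlf6 2 lay above the 7.49 of Control 3. DeltaHepKlf6 3, with the lowest list mean, was also the lowest array in 55.8% of the brighter genes. The median difference of the 12 markers was -0.45 with all arrays and -0.32 without Control 1, where that of the members was 0.03. In 4 of the 12 every DeltaHepKlf6 value lay below the Control values, against 3.9% of all genes, and the test called 0 of 12 (limma, adjusted p under 0.05), with 1 at an unadjusted p under 0.05. Endothelial markers were highest there in 5 of 10, stellate cell markers in 4 of 10, cholangiocyte markers in 1 of 4 and red blood cell markers in 2 of 3, where 33.2% of all genes and 42.7% of the brighter genes were. No marker was listed at 0, since the values are on a log2 scale with a background. The part of these cells in the early gene values was not tested.

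**Figure D5:**
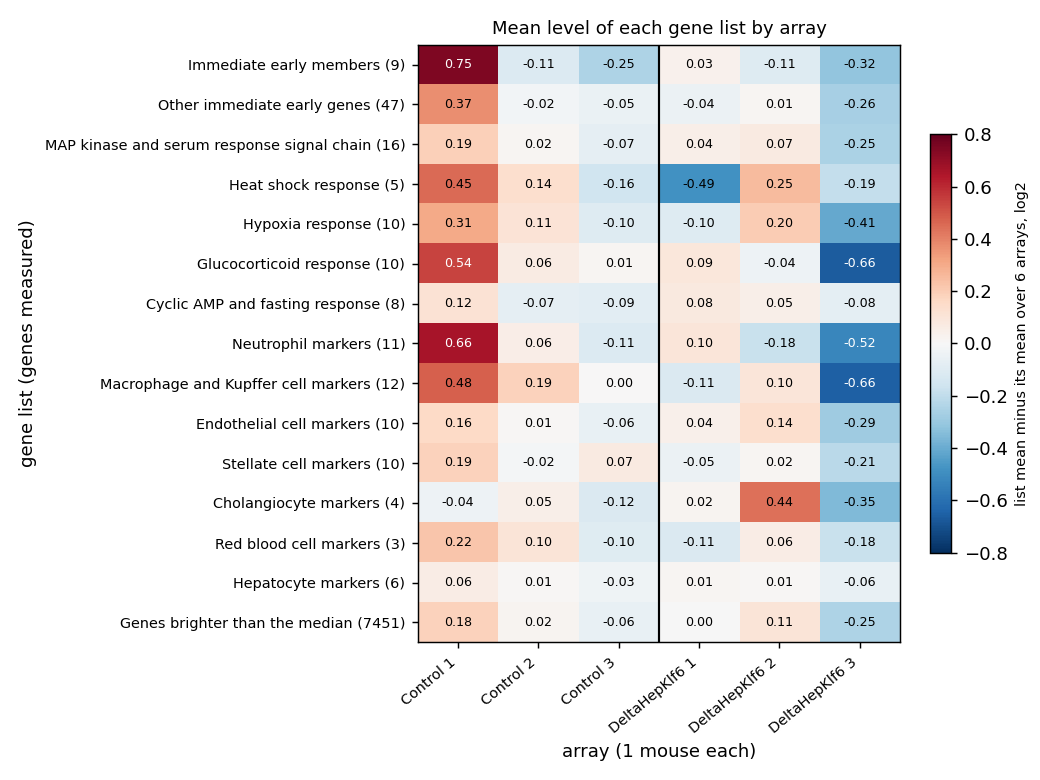
Mean log2 level of each gene list in each array (columns), as the distance from the mean of that list over the 6 arrays, with the number of genes measured in brackets. The members stand highest in Control 1, followed by neutrophil markers, glucocorticoid response genes (which include the member Dusp1), macrophage and heat shock genes, and hepatocyte markers hardly vary. Exocrine pancreas markers, high in Control 3 alone, are left out.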

How the data were processed

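The authors deposited 1 table of log2 expression values, 23332 probe sets by 6 arrays, with Affymetrix Expression Console, RMA and limma named in the submitters' processing notes without versions or roles. RMA subtracts background and normalizes between arrays, and differences of dim probe sets may be compressed, which was not tested. The log2 scale was inferred from the range of values. The probe sets' genome build was not stated in the labels. Arrays give no read depth, and their number limits the precision.

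Groups came from the sample titles, which name separate mice. Gene names came from the platform annotation, where 14996 probe sets named 1 gene, 1019 several and 7317 none. Each gene was read from its brightest single-gene probe set by mean of the 6 arrays. Every member had 1. Gene IDs of 14941 sets matched RefSeq, which changed 0 symbols, and older list symbols were updated through its synonyms.

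DeltaHepKlf6 and Control were compared in R 4.3.3 with limma 3.58.1 (lmFit, eBayes) over all 23332 probe sets, with Benjamini-Hochberg adjustment over all of them, called at 0.05. The fit was tested on simulated data. Tables used pandas 2.3.3, plots matplotlib 3.10.9, both under Python 3.11.15. Named genes were the members, Klf6, up to 12 brighter early genes and up to 3 per other list by span between arrays, and 10 by likeness of profile. Outside this rule were those said to be chosen after seeing values and Alb, Ttr, Elane, Camp, Mpo, G6pc, Dnajb1, Hsph1, S100a8, Ngp, Csf3r and Itgam. Members and lists were chosen with earlier results of these data known.

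Alternatives were each array left out, a replicate block, an intensity trend, a filter on dim probe sets, quantile normalization, equal medians and array weights. Leaving out Control 1 and 3 together, and the interquartile range of each array as a covariate, were added after seeing the data. Sample columns left unused numbered 0.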

Additional observations from a re-analysis of the deposited data

How the results depend on the processing

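With 3 arrays a group, only large differences could pass the test, and dim probe sets such as Fos, Ier2 and Ier3 limit it further. In none of the alternatives with more than 1 array in each group did limma call a probe set, a member or another immediate early gene (0 of each). Between 233 and 1797 probe sets had an unadjusted p under 0.05, against 750 of 23332 in the main fit. The highest count came without DeltaHepKlf6 2, out of 23332 probe sets. The lowest came without the dimmest 50% of probe sets, out of only 11666. The median difference of the members, -0.33, ranged from -0.57 to 0.03 when 1 array was left out, with the latter without Control 1. It was -0.24 after quantile normalization, -0.16 with array weights, -0.17 with the interquartile range as a covariate and -0.02 without Control 1 and Control 3. The corresponding median of the other early genes, -0.17, ranged from -0.23 to -0.05.

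With 1 array left out, the difference ranged from -0.81 to 0.053 for Fos, from -0.58 to 0.028 for Jun, from -0.13 to 0.18 for Junb, from -0.79 to 0.045 for Egr1, from -0.42 to 0.067 for Ier2, from -0.28 to -0.05 for Ier3, from -0.74 to -0.14 for Dusp1, from -0.78 to -0.15 for Zfp36 and from -0.057 to 0.51 for Btg2. Fos, Jun, Junb and Egr1 turned sign without Control 1, Junb and Ier2 without DeltaHepKlf6 3 and Btg2 without Control 3. Junb, at -0.01, also became 0.029 with quantile normalization, 0.01 with equal medians, 0.076 with array weights, 0.12 with the interquartile range as a covariate and 0.23 without Control 1 and Control 3, where Egr1 was 0.26 and Zfp36 0.02. The cause was not tested.

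The replicate numbers are not said to pair mice. Deviations of same-numbered arrays correlated with -0.13, -0.17 and 0.21, and Control 1 went best with DeltaHepKlf6 2 (0.34). With the replicate number as a block, 0 members were called, the median stayed at -0.33 and 884 probe sets had an unadjusted p under 0.05. Averaging several probe sets of a member was not run, as each had 1.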

Other observations

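Of all 14860 genes, 27 or 0.182% were at least 1 on the log2 scale higher in Control 1 than in each other array, among them Fos, Egr1, Atf3, Plk3 and Thbs1. The others were described after their values were seen, and no shared function was tested. Orm2, an acute phase protein, was 10.86 in Control 1 and 7.19 to 8.97 elsewhere. Chil3, a chitinase-like protein of myeloid cells, was 6.36 against 2.51 to 3.96, and Mmp8, the neutrophil collagenase, 7.03 against 4.12 to 5.74. Cd14, the co-receptor for endotoxin, was 7.91 against 5.61 to 6.89, and Litaf, a factor induced by endotoxin, 10.11 against 8.42 to 9.09.

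A further 7 of the 27 were olfactory receptor genes with low values, led by Olfr1496 at 5.19 against 1.58 to 2.38. Asns, asparagine synthetase, was 9.45 in Control 1 and 6.91 to 8.41 elsewhere. Besides Retnlg, the 27 also held Scgb1a1, Serpina7, Slc37a1, Jph2, Etv5, Tacc2, Rgs16 and Dusp23. In Rgs16 and Serpina7 every DeltaHepKlf6 value also lay below the Control values, as in 3.9% of all genes. They differed by -1.57 ± 0.49 (SE) and -1.89 ± 0.69 (SE), or by -1.23 and -1.14 without Control 1. Neither passed the test (limma, adjusted p = 0.998 for both with all arrays). The count of genes at least 1 above every other array was 3 in Control 2, 35 in Control 3, 13 in DeltaHepKlf6 1, 25 in DeltaHepKlf6 2 and 5 in DeltaHepKlf6 3. Only Control 3, the liver with exocrine pancreas transcripts, thus had more such genes than Control 1. At the smaller step of 0.5, Control 1 led with 333 genes, followed by DeltaHepKlf6 2 with 123. Among the genes brighter than the median, the count at a step of 1 was 14 in Control 1, followed by 7 in Control 3.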
